A study of Mus musculus with 2 samples.

Results

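The subject here is a set of 10 genes of the ETS family in G1E cells: Spi1, Spib, Fli1, Erg, Ets1, Ets2, Etv6, Elf1, Elf4 and Gabpa. They were taken by name and not by a cut on any measured value, though with earlier results of these data known. All 10 were found among the 43346 gene entries of the tables by matching Ensembl gene identifiers to GENCODE symbols. G1E is an immortalised mouse line that the labels give as male and postnatal, at an age of 0 days, and describe as a Gata1- erythroid progenitor. The series holds 2 paired-end libraries of polyadenylated RNA from G1E, with no treatment named, replicate 1 with 61982634 expected counts and replicate 2 with 80658648, and both belong to the same group. The labels number them as biological replicates but tie both to the same cell sample, so the spread between them may be technical. No second condition was analysed here, and the values below are levels, shares and ratios within a library, and the difference between the libraries.

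ETS proteins share a winged helix-turn-helix DNA-binding domain that contacts a GGAA core, and they differ in the bases they prefer around that core, in their partner proteins and in whether they activate or repress. PU.1, the product of Spi1, drives myeloid and B cell programmes. It binds GATA1 protein, and each factor can block the activity of the other, which is why its level is of interest in an erythroid line labelled as lacking GATA1. FLI1 and ERG serve megakaryocytes, blood stem cells and endothelium, ETS1 and ETS2 act downstream of mitogen-activated kinases, ETV6 is a repressor needed by adult blood stem cells, ELF1 and ELF4 activate genes in blood cells, and GABPA is the DNA-binding part of the GABP complex that serves mitochondrial and housekeeping genes.

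Levels are in TPM, a measure of transcript abundance that is scaled by length, so different genes can be set side by side. Detection was set at a level of at least 1 TPM in each library, which 8581 of 21474 protein-coding genes (39.96%) reached. Of the 10 ETS genes, 8 were detected: Spi1, Ets2, Etv6, Elf4, Gabpa, Elf1, Fli1 and Erg. Spib and Ets1 were at or near 0. The levels of the 8 ranged from 2.00 ± 0.0636 TPM for Erg to 136 ± 4.47 TPM for Spi1 (SD, n = 2 libraries), and their median was 12.9 TPM in replicate 1 and 16.5 TPM in replicate 2, against 16.97 and 19.02 TPM for all detected protein-coding genes. In bulk RNA, fewer cells holding a transcript and less of it per cell cannot be told apart.

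**Figure D1:**
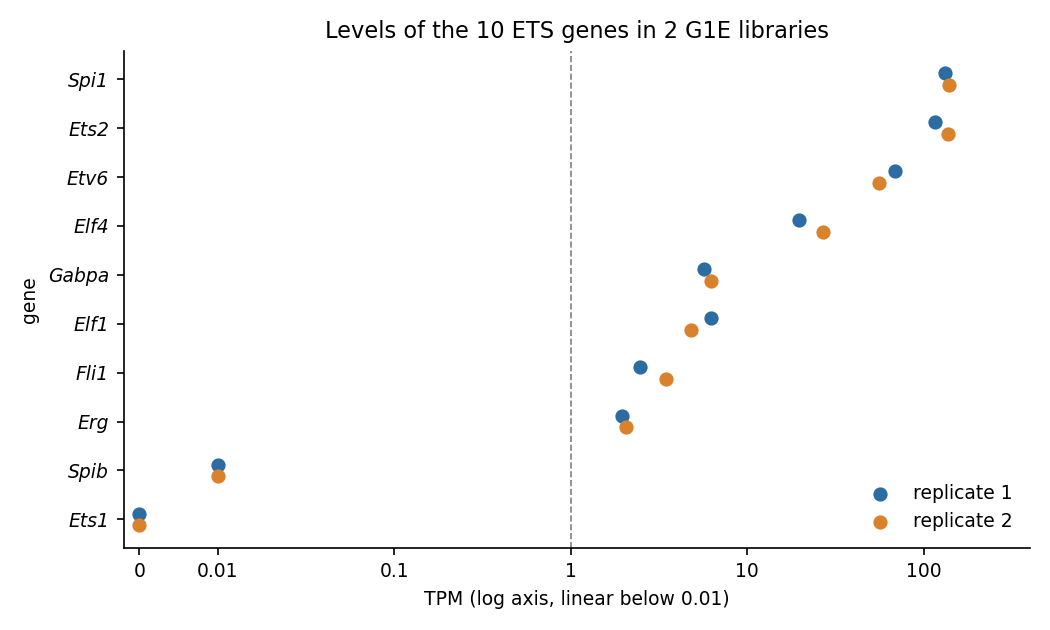
Level of each of the 10 ETS genes in TPM (horizontal log axis, linear below 0.01) in replicate 1 (blue) and replicate 2 (orange) of G1E, with a dashed line at the detection limit of 1 TPM. Spi1 and Ets2 lie highest, Spib at 0.01 TPM and Ets1 at 0, and the libraries lie close together for each gene.

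The deposited shares per transcript show at which annotated starts the RNA of a gene was placed, and for Elf1, Elf4 and Erg RefSeq lists more than 1 start. The sequences below are RefSeq promoters on GRCm38.p6, the same assembly as mm10, from 250 bases before to 50 bases after an annotated start. Each is written 5′ to 3′ on the strand of its gene, with the ETS core in capitals, as GGAA or, on the other strand, TTCC. Promoters were found in this source for 7 of the 10 genes, 11 in all; Spi1, Fli1 and Ets1 had no entry. For Elf1, both annotated starts are shown because nearly all of its TPM went to the transcript of the first. The first lies at chr14:79480944-79481243 on the plus strand and the other at chr14:79515424-79515723 on the plus strand.
Elf1 first start: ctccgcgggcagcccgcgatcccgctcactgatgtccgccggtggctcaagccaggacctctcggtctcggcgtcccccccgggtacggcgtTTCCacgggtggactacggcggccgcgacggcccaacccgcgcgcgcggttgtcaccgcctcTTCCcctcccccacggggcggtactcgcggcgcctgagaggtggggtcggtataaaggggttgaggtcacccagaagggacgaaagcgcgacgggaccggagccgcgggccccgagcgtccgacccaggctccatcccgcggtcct
Elf1 second start: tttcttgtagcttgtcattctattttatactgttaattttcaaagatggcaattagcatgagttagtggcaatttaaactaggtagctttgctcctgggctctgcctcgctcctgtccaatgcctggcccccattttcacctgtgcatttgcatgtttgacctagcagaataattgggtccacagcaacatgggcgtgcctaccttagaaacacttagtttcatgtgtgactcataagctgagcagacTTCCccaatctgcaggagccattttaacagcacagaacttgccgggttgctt

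The first start of Elf1 had a GC content of 73.0% and 43 CpG, and the second 44.7% and 3 CpG, against medians of 52.7% and 7 CpG over 32851 promoters of the same length. The transcript of the first start, Elf1-201, took 99.6% of the TPM of Elf1 in replicate 1 and 97.35% in replicate 2, and Elf1-202 from the second start took 0.370% and 2.65%. By the M21 annotation each begins at its RefSeq start, although their lengths in the deposited tables differ from M21 by 18 and 19 bases. Elf4 had the reverse layout, with no counts on the transcripts of its upstream start. Its upstream promoter is at chrX:48463083-48463382 and its downstream promoter at chrX:48454270-48454569, both on the minus strand.
Elf4 upstream start: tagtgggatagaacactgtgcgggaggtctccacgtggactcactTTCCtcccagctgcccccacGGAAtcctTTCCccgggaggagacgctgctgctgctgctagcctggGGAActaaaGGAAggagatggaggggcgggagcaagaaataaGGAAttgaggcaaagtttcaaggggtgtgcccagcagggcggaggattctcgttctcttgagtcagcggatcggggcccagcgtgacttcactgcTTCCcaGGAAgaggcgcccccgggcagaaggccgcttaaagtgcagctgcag
Elf4 downstream start: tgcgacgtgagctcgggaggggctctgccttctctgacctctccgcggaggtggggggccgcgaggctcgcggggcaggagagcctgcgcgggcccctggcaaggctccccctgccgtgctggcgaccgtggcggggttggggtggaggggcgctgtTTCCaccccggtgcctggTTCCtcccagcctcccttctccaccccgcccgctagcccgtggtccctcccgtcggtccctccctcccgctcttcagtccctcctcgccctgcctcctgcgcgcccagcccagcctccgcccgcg

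Both transcripts annotated from the upstream start of Elf4, Elf4-201 and Elf4-203, were at 0 counts in both libraries. Elf4-202, whose M21 start lies within 300 bases of the downstream RefSeq start, took all 6514 counts in replicate 1 and all 11257 in replicate 2. The downstream promoter held 29 CpG and 2 ETS cores with a GC content of 75.3%, and the upstream promoter, without counts, held 14 CpG and 8 ETS cores. For both genes the promoter tied to the transcripts found in G1E was thus the one with more CpG. Erg differed, with most of its TPM at the third and most downstream of 3 RefSeq starts. That promoter lies at chr16:95459299-95459598 on the minus strand and is shown because most of the TPM of Erg was placed there and because it was the only one of the 11 with a GATA core, the letters that GATA factors contact.
Erg downstream start: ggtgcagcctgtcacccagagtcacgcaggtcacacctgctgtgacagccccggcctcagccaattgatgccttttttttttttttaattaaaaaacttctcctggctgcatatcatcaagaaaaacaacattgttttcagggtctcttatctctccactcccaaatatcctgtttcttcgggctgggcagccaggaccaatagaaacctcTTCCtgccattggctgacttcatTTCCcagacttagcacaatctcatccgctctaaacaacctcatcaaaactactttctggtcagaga

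The third start of Erg held 4 CpG, a GC content of 46.0%, 2 ETS cores and 1 GATA core. Erg-205, which M21 starts within 300 bases of it, took 81.7% of the TPM of Erg in replicate 1 and 80.8% in replicate 2. No TPM went to transcripts that M21 starts within 300 bases of the other RefSeq starts. An Erg transcript with no entry in M21 also held TPM in both libraries. Its start is not known here, so its TPM could not be placed at or away from any RefSeq start. Motifs were searched as exact letters on both strands, and hits may overlap: GGAA or TTCC for the ETS core, GATAA or TTATC for the GATA core, CCGGAAGT or ACTTCCGG for a longer ETS site, and GAGGAAGT or ACTTCCTC for a PU.1 type. The ETS core is in 96.0% of the 32851 promoters, with a median of 3 hits, so its presence in all 11 sets the members apart from nothing. The GATA core is in 25.4% of all promoters, the PU.1 type in 3.20% (Gabpa alone among the 11) and the longer ETS site in 3.89% (none of the 11). A match is a description of the letters in the window and does not show that a factor was bound.

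Spi1 had the highest mean level of the 10. It lay above Ets2 in each library, though too near it in replicate 2 for the order to be set. Spi1 (ENSMUSG00000002111.8, chr2:91082390-91115756, plus strand) was at 132.8 TPM in replicate 1 and 139.1 TPM in replicate 2, from 13478 and 17947 expected counts. This is percentile 88.6 of the detected protein-coding genes. The authors' credibility bounds, 129 to 134 TPM in replicate 1 and 135 to 140 TPM in replicate 2, did not overlap. Nearly all of the RNA was of the longest coding transcript.

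Spi1 has 4 annotated transcripts. Spi1-201, of 2034 bases, took 95.5% of the gene's TPM in replicate 1 and 96.2% in replicate 2, or 99.3% (95% interval 99.2% to 99.4%) and 99.45% (99.3% to 99.6%) of its counts. Spi1-203, a coding transcript of 402 bases, took 4.12% and 3.69% of the TPM. The other 2 begin at an upstream start: Spi1-202 held 14 counts in replicate 1 and 6 in replicate 2, and Spi1-204 held 0 in both, where a count of 0 allows up to 0.0484 CPM in replicate 1 and 0.0372 CPM in replicate 2. Transcripts from the upstream start were thus a trace beside Spi1-201 in both libraries.

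Set against the GATA factors, Spi1 RNA stood above Gata1 and far below Gata2. Gata1, the gene named as lost in the labels, was at 48.0 TPM in replicate 1 and 46.6 TPM in replicate 2; a sum over the whole gene says nothing of single exons, so these levels do not test the disruption. In replicate 1 Spi1 was 2.77-fold Gata1, and in replicate 2 it was 2.98-fold; on the log2 scale the ratio averaged 1.52 ± 0.08 (SD, n = 2). Gata2, the progenitor GATA factor, was at 1086 and 941 TPM, and Spi1 was 0.122-fold Gata2 in replicate 1 and 0.148-fold in replicate 2.

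Spib, the nearest relative of Spi1, which works in B cells and plasmacytoid dendritic cells, was not detected. Spib (ENSMUSG00000008193.9, chr7:44525993-44532071, minus strand) held 1 expected count in each library and 0.01 TPM, with upper credibility bounds of 0.0422 and 0.0334 TPM. Markers of those cells were at or near 0 as well: Ms4a1, Ebf1 and Cd22 had 0 counts in both libraries, and 1 of 10 such markers (median 0 and 0.01 TPM) was detected, Tcf4, a factor also used outside these cells, at 8.72 and 16.1 TPM. The third gene of the group, Spic, a factor of macrophages that recycle iron, was at 0 TPM in both libraries.

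Fli1 and Erg, the pair that acts in megakaryocytes, stem cells and endothelium, were detected at low levels. Fli1 (ENSMUSG00000016087.9, chr9:32422204-32542861, minus strand) was at 2.48 TPM in replicate 1 and 3.48 TPM in replicate 2, from 439 and 780 counts, all on Fli1-201. Erg (ENSMUSG00000040732.14, chr16:95359169-95586593, minus strand) was at 1.96 and 2.05 TPM, from 144 and 207 counts. Fli1 lay above Erg in both libraries, by 1.26-fold in replicate 1 and 1.70-fold in replicate 2, and the Spi1 level was 53.55-fold and 39.98-fold that of Fli1.

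Erg was spread over more transcripts than Fli1. Erg-205, of 1222 bases, took 66.7% of the gene's counts in replicate 1 and 60.9% in replicate 2, and a transcript of 3062 bases that has no entry in M21 (ENSMUST00000118113.3) took 26.4% and 39.1%. With 207 counts or fewer per library, the exact 95% interval of the Erg-205 share in replicate 2 ran from 53.9% to 67.6%. The order of these transcripts was the same in both libraries. Of the 9 annotated Erg transcripts, 6 were at 0 in both.

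Ets1 and Ets2, close relatives that kinases of the MAPK pathway activate, were near opposite ends of the order. Ets1 (ENSMUSG00000032035.11, chr9:32636221-32757820, plus strand), a factor of lymphocytes, was at 0 TPM in both libraries, from 0 counts in replicate 1 and 1 in replicate 2, with upper credibility bounds of 0.157 and 0.126 TPM. It is the neighbour of Fli1, 93360 bases away on the opposite strand. Ets2 (ENSMUSG00000022895.10, chr16:95702075-95721051, plus strand) was at 115.6 TPM in replicate 1 and 137.6 TPM in replicate 2, from 9246 and 13584 counts, and its neighbour 115482 bases away on the opposite strand is Erg. Ets2 was 59.0-fold Erg in replicate 1 and 67.1-fold in replicate 2, so in each of these neighbouring pairs 1 gene was detected well above the other.

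The Ets2 level rests on a short transcript. A transcript of 654 bases with no entry in M21 (ENSMUST00000145509.3) took 71.05% of the gene's TPM in replicate 1 and 61.3% in replicate 2, though only 25.3% and 22.3% of its counts. Ets2-201, the coding transcript of 3890 bases, took 28.5% and 27.1% of the TPM and 74.4% and 72.6% of the counts. Counted on transcripts that M21 types as protein_coding, Ets2 was at 35.1 ± 3.08 TPM (SD, n = 2), against 127 ± 15.6 TPM over all its transcripts. This count on coding transcripts was chosen after the data were seen. It leaves out transcripts with no entry in M21, which have no type here and are not known to be noncoding.

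**Figure D2:**
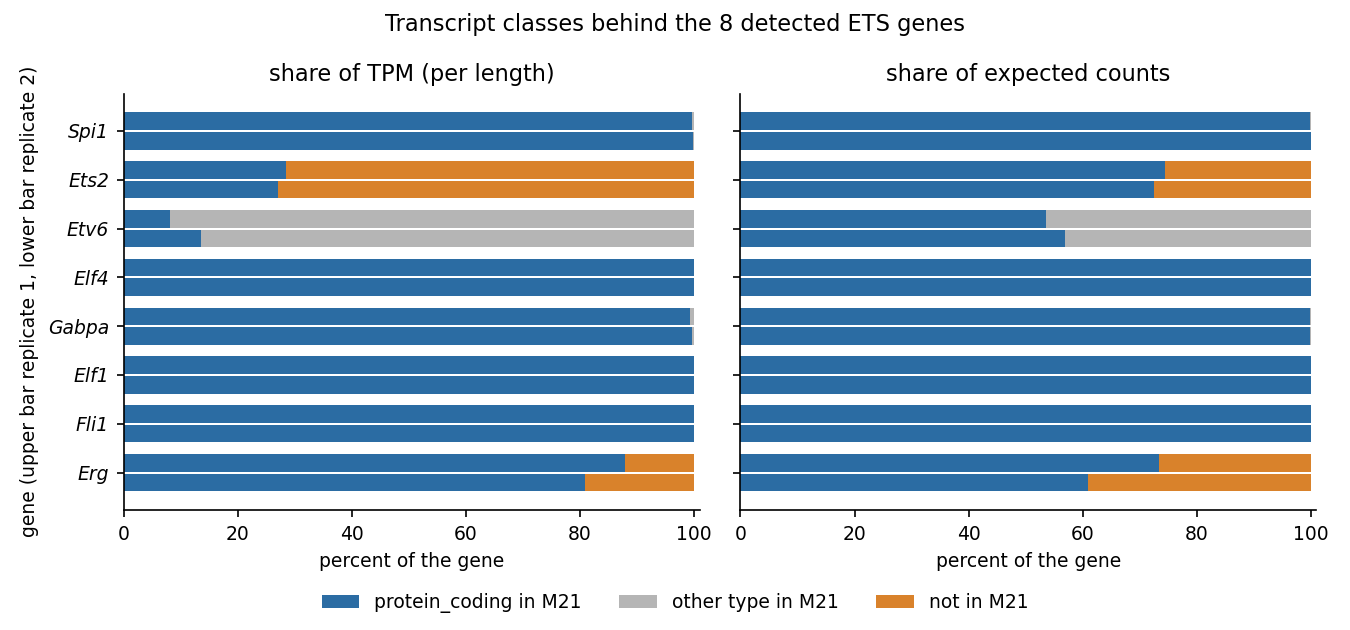
Percent of each detected ETS gene's TPM (left panel) and of its expected counts (right panel) held by transcripts typed protein_coding in M21 (blue), of another type in M21 (grey) and with no entry in M21 (orange), with replicate 1 as the upper and replicate 2 as the lower bar. Coding transcripts held 28.5% and 27.1% of the TPM of Ets2 and 8.09% and 13.5% of that of Etv6, and over 80% of the TPM of the other 6.

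Etv6, which encodes a repressor of the family, had the largest shift of transcript shares between the libraries among the 8 detected genes. Etv6 (ENSMUSG00000030199.12, chr6:134035700-134270158, plus strand) was at 68.5 TPM in replicate 1 and 55.7 TPM in replicate 2, from 3137 and 5054 counts. The leading transcript was Etv6-203, a processed transcript of 373 bases, in replicate 1, with 60.5% of the TPM against 20.4% in replicate 2. It was Etv6-205, a retained intron of 915 bases, in replicate 2, with 66.0% of the TPM against 31.4% in replicate 1. Etv6 was the only detected member whose leading transcript was not the same in both libraries.

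The coding form of Etv6 was a small share of its TPM. Etv6-201, of 5548 bases, took 6.91% of the TPM in replicate 1 and 11.9% in replicate 2, though 45.52% and 49.98% of the counts. On coding transcripts alone Etv6 was at 5.54 TPM in replicate 1 and 7.53 TPM in replicate 2, and it then ranked below Elf4 and not above it. The mean length that the authors used to scale its counts, the effective length, was 820 bases in replicate 1 and 1283 in replicate 2. Etv6 was lower in replicate 2 by TPM (log2 ratio -0.30) and higher in replicate 2 by scaled counts (log2 ratio 0.19).

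Elf1 and Elf4, activators in blood cells, were detected with all or nearly all of their TPM at a single start, as the promoters above show. Elf4 (ENSMUSG00000031103.8, chrX:48411046-48463132, minus strand) was at 19.6 TPM in replicate 1 and 26.8 TPM in replicate 2. Elf1 (ENSMUSG00000036461.11, chr14:79481194-79582494, plus strand) was at 6.24 and 4.79 TPM, from 1418 and 1375 counts. Elf4 lay above Elf1 in both libraries, by 3.14-fold in replicate 1 and 5.59-fold in replicate 2, with Elf4 higher and Elf1 lower in replicate 2. Elf1 overlaps Wbp4, on the opposite strand, over 327 bases, and Wbp4 was at 7.78 and 7.68 TPM. Whether counting used the strand is not given in the sources used here. The expected counts of Elf1 and of Wbp4 (1438 and 1795) were whole numbers, so no reads split between them were seen. Whether each read in that overlap was placed on the right gene was not tested.

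Gabpa, which encodes the DNA-binding subunit of GABP, was at 5.69 TPM in replicate 1 and 6.27 TPM in replicate 2. Gabpa (ENSMUSG00000008976.12, chr16:84834925-84863779, plus strand) held 1468 and 1939 counts. Gabpa-201 took 92.3% of its TPM in replicate 1 and 83.5% in replicate 2, and Gabpa-202, which starts nearby, took 7.06% and 16.1%. Gabpb1 and Gabpb2, which encode the partner subunit that activates transcription, were at 0.805-fold and 0.671-fold Gabpa in replicate 1 and at 0.627-fold and 0.997-fold in replicate 2. Gabpa overlaps Atp5j on the opposite strand over 701 bases, and Atp5j, a subunit of the mitochondrial ATP synthase, was 10.7-fold Gabpa in replicate 1 and 8.58-fold in replicate 2. The expected counts of Gabpa and of Atp5j (2235 and 2517) were whole numbers too, and the placing of reads in this overlap was likewise not tested.

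In order of mean level the 10 were Spi1, Ets2, Etv6, Elf4, Gabpa, Elf1, Fli1, Erg, Spib and Ets1. The ranges over the 2 libraries overlapped for Spi1 and Ets2 and for Gabpa and Elf1, and Spib and Ets1 had at most 1 count in a library. Within a library Spi1 lay above Ets2 in both, at 132.8 against 115.6 TPM in replicate 1 and 139.1 against 137.6 TPM in replicate 2. In replicate 2 their credibility bounds overlapped (135 to 140 TPM for Spi1 and 132 to 140 TPM for Ets2). Gabpa and Elf1 changed places between the libraries. The order within these 3 pairs over all transcripts is thus not set by these data. The ranges of the other neighbouring genes among the 8 detected did not overlap, with folds between the means of 2.04-fold for Ets2 over Etv6, 2.68-fold for Etv6 over Elf4, 3.88-fold for Elf4 over Gabpa, 1.85-fold for Elf1 over Fli1 and 1.49-fold for Fli1 over Erg. On coding transcripts alone, the one change in the order of the means was Elf4 above Etv6, and the range of Etv6, 5.54 to 7.53 TPM, then overlapped those of Gabpa (5.65 and 6.24 TPM) and Elf1 (6.23 and 4.79 TPM). Spi1, at 132 and 139 TPM, then lay well above Ets2, at 32.9 and 37.3 TPM, with the untyped Ets2 transcripts that have no entry in M21 left out.

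Among the 27 ETS family genes of the mouse examined here, 15 were detected, namely 8 of the 10 and 7 of the other 17 (median over the 17 of 0.02 TPM in replicate 1 and 0.03 TPM in replicate 2). Etv3l, among the 17, is typed as an unprocessed pseudogene and was at 0 TPM in both libraries. The whole family summed to 639 TPM in replicate 1 and 653 TPM in replicate 2. Spi1 held 20.8% of that sum in replicate 1 and 21.3% in replicate 2 (21.1% ± 0.373, SD, n = 2), and Spi1, Ets2, Etv6, Erf and Etv5 together held 82.9% and 79.2%. Counted on coding transcripts, Spi1 held 33.6% and 33.2%. Of the other 17, the highest were Erf, a repressor, at 107 ± 11.4 TPM, and Etv5, of the PEA3 group, at 91.9 ± 8.60 TPM, of which 16.4 ± 0.141 TPM came from coding transcripts (SD, n = 2).

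The remaining family genes were lower. Elf2, another member of the ELF group, was at 45.6 ± 11.1 TPM, Elk1, a serum response partner, at 16.3 ± 0.636 TPM, Etv3 at 14.1 ± 2.43 TPM, Elk4 at 4.63 ± 0.785 TPM and Etv4 at 1.75 ± 0.156 TPM (SD, n = 2 each). On coding transcripts Etv4 was at 0.14 TPM in replicate 1 and 0.09 TPM in replicate 2, under the detection limit. The other 10 of the 17, among them Etv2, the master factor of endothelium and blood in the embryo, and the epithelial genes Elf3, Elf5, Ehf and Spdef, were each under 1 TPM in both libraries.

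**Figure D3:**
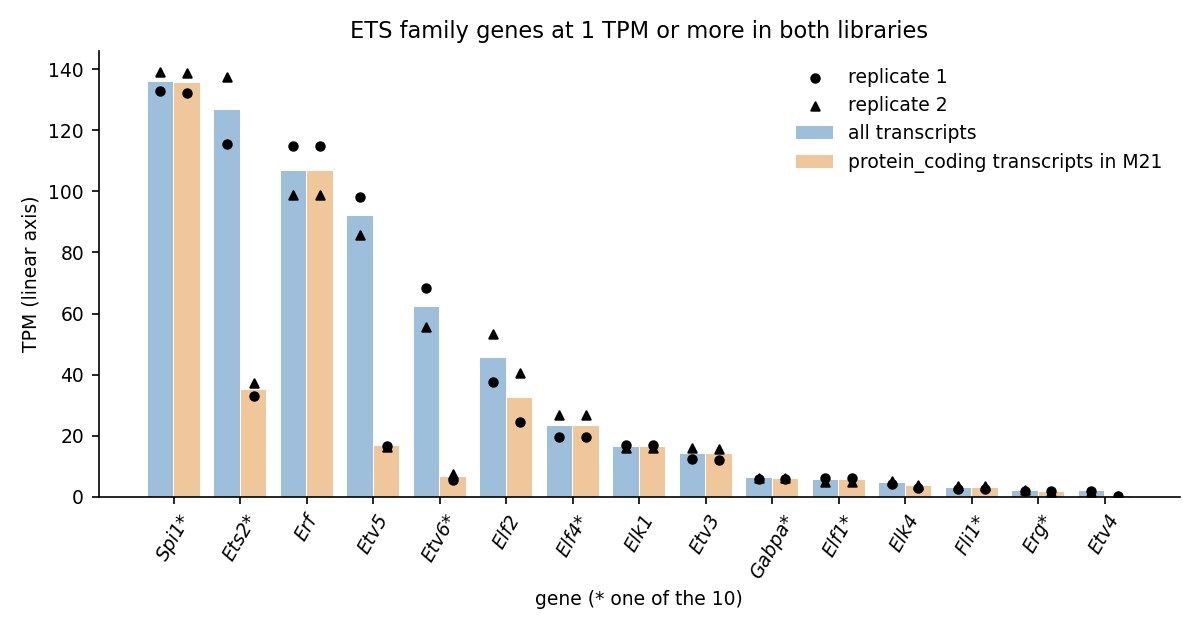
TPM of the 15 detected ETS family genes (linear axis), as means over the 2 libraries with all transcripts summed (blue bars) and with only the transcripts typed protein_coding in M21 (orange bars); circles mark replicate 1 and triangles replicate 2. The coding bar falls far below the other for Ets2, Etv5, Etv6 and Etv4, and not for Spi1 or Erf.

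Partners and regulators of the ETS proteins were largely present. Of 21 such genes, with a median of 23.9 TPM in replicate 1 and 17.6 TPM in replicate 2, 17 were detected. Those that were not included Irf4 and Irf8, which bind DNA together with PU.1 and SPIB, and Cebpa, the myeloid partner of PU.1. Runx1, which works with ETS factors on many blood enhancers, was at 165.5 and 159.4 TPM, 1.25-fold Spi1 in replicate 1 and 1.15-fold in replicate 2. Cebpb was at 86.5 and 62.2 TPM, where Cebpa was at 0.04 and 0.02 TPM.

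Genes known as PU.1 targets in myeloid cells were present in part. Of 26, 11 were detected (42.3%), against 39.96% of all protein-coding genes, with a median over the 26 of 0.5 TPM in replicate 1 and 0.825 TPM in replicate 2, against 0.03 TPM for all protein-coding genes in each. The highest were Laptm5, a lysosomal protein of blood cells, at 556.5 and 545.6 TPM, Coro1a, a coronin of leukocytes, at 175.1 and 187.8 TPM, and Csf2rb, the shared receptor chain for GM-CSF and IL-3, at 64.9 and 64.8 TPM. The defining markers of mature myeloid cells were near 0: Csf1r, the receptor for M-CSF, was at 0.01 TPM in both libraries, Itgam at 0.05 and 0.07 TPM, Cd14 at 0.03 and 0.06 TPM, Lyz2 at 0.11 and 0.15 TPM, and Ptprc had 0 counts in both. The summed level of the 26 was 859 TPM in replicate 1 and 888 TPM in replicate 2.

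The other target lists were detected to differing extents. Of 13 megakaryocyte genes known as ETS targets, 6 were detected (median over the 13 of 0.55 TPM in replicate 1 and 0.52 TPM in replicate 2), among them Nfe2, a globin and platelet gene activator, at 152.7 and 152.4 TPM, Gp5, a platelet glycoprotein, at 33.3 and 32.6 TPM, and Itga2b at 23.0 and 27.9 TPM, while Tubb1 had 0 counts in both libraries. Of 8 endothelial genes known as ETS targets, whose median level was 0.005 and 0 TPM, 2 were detected, Egfl7, which hosts an endothelial microRNA, at 129 and 137 TPM and Eng at 5.19 and 6.34 TPM, and the defining genes Pecam1, Cdh5 and Emcn had 0 counts in both libraries. All 6 mitochondrial genes known as GABP targets were detected, with a median of 35.2 TPM in replicate 1 and 33.4 TPM in replicate 2. Of 14 erythroid markers, with a median of 130 and 153 TPM, 13 were detected, the exception being Alas2, the erythroid enzyme of haem synthesis, at 0.29 and 0.58 TPM, and the erythroid factor Klf1 was at 248 and 194 TPM.

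**Figure D4:**
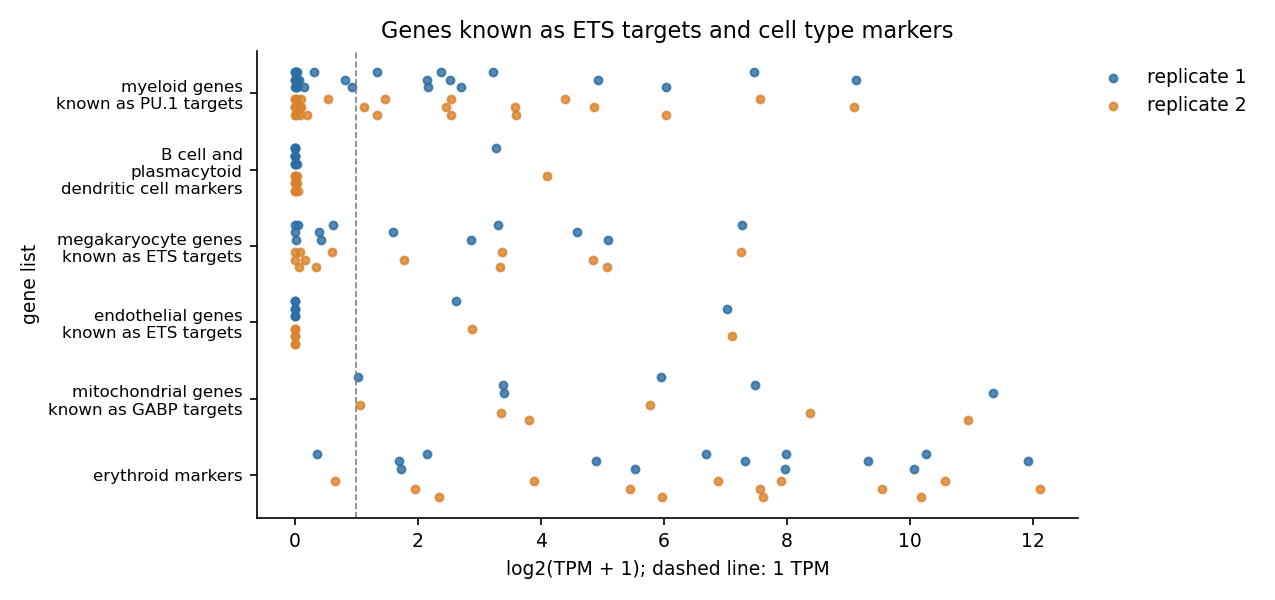
Each point is a gene of a list at log2(TPM + 1) in replicate 1 (blue) or replicate 2 (orange), with a dashed line at 1 TPM. Of the 26 myeloid genes 11 lie at or above 1 TPM in both libraries, of the 8 endothelial genes 2, and of the 14 erythroid markers 13.

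The libraries were compared for every gene by an exact binomial test (two-sided, conditional on the gene's total) of the rounded expected counts, with p adjusted by Benjamini-Hochberg over 11636 genes. Such a test sets 2 libraries side by side, not 2 conditions, and knows counting error only. At an adjusted p under 0.05 and at least 2-fold, 5.62% of the 11636 genes were called (444 higher in replicate 2 and 210 higher in replicate 1), and none of the 8 ETS genes with enough counts was. Of the 8, 6 were at an unadjusted p under 0.05. With no fold requirement 64.4% of all genes were called and 6 of the 8, with 4 higher in replicate 2 and 2 higher in replicate 1, so the members' calls without a fold say little beyond what held for most genes. The median absolute log2 ratio was 0.14 over the 8 and 0.27 over all genes tested.

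By scaled counts Elf1 showed the widest gap of the 8 and lay lower in replicate 2, with a log2 ratio of -0.54 (adjusted p = 1.71e-22, exact test). By TPM its log2 ratio was -0.38, and Fli1, at 0.49, and Elf4, at 0.45, were wider. Fli1 had a log2 ratio of 0.33 (adjusted p = 0.00026, exact test) and Elf4 of 0.29 (adjusted p = 7.2e-38, exact test), both higher in replicate 2. Etv6 (log2 ratio 0.19, adjusted p = 2.18e-08, exact test) and Ets2 (log2 ratio 0.06, adjusted p = 0.00733, exact test) were also higher there by scaled counts, but Etv6 was lower by TPM. Erg (log2 ratio 0.02, adjusted p = 0.953, exact test) and Gabpa (log2 ratio -0.10, adjusted p = 0.0786, exact test) did not pass, and Gabpa lay at 0.14 by TPM. The small gap of Spi1 turned round with the scaling: its log2 ratio was -0.09 by scaled counts (adjusted p = 4.78e-07, exact test) and 0.07 by TPM, a scale on which the median of all genes tested lay at 0.15 and not at 0.01. Relative to those medians Spi1 lay lower in replicate 2 on both scales.

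**Figure D5:**
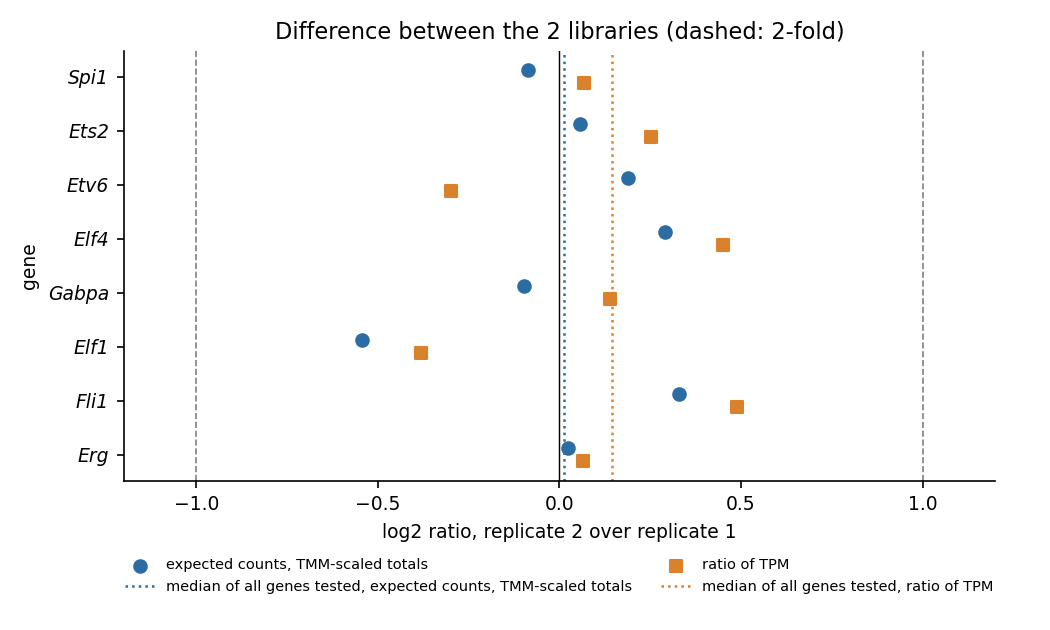
Log2 ratio of replicate 2 to replicate 1 for the 8 detected ETS genes, from TMM-scaled expected counts (blue circles) and from TPM (orange squares), with dotted lines at the median of all genes tested on each scale (0.01 and 0.15) and dashed lines at a 2-fold difference. All 8 lie within 2-fold on both scales; Etv6 lies at 0.19 by counts and -0.30 by TPM.

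Among the genes of the target and marker lists, 4 were called different between the libraries at 2-fold: 2 of the 17 myeloid genes tested and 2 of the 10 megakaryocyte genes tested, against 5.62% of all genes. None was called among the 1 B cell, 2 endothelial, 6 GABP and 14 erythroid genes tested. Tyrobp, a signalling adaptor of myeloid cells, was at 11.1 TPM in replicate 2 and 4.18 TPM in replicate 1, and Fcgr2b, an inhibitory Fc receptor, at 0.46 and 0.24 TPM. Gp1bb was at 0.12 TPM in replicate 2 and 0.35 TPM in replicate 1, and Treml1 at 0.27 and 0.55 TPM. The myeloid pair was thus higher in replicate 2 and the platelet pair lower, with 3 of the 4 under 1 TPM in both libraries. Fcgr2b rested on 14 counts in replicate 1 and 49 in replicate 2, and the platelet pair on 34 counts or fewer per library. Better counted genes of the megakaryocyte list went either way by scaled counts, with a log2 ratio of 0.41 for Gp9 and -0.19 for Gp5. Whether these differences bear on the ETS genes was not tested.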

How the data were processed

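The authors deposited, for each of the 2 libraries, gene-level and transcript-level tables, made on mm10 with GENCODE M4, per the deposited descriptions. The aligner and counter were not given in the sources used here. The deposited expected counts are estimated counts of read pairs, where a model splits reads that fit several features. The authors' TPM values scale these by effective length and library total, and the deposited IsoPct values are the percent of a gene's TPM held by a transcript. The credibility bounds of TPM are the authors', with a level that the headers do not name. No step of the authors pooled the libraries, per the deposited descriptions.

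Gene and transcript names, types and positions came from GENCODE M21 (GRCm38, the assembly of mm10), matched by Ensembl identifier without version, for 98.0% of 43346 gene entries. Of the 43 transcripts of the 10 genes, 35 were in M21, and 30 of those had the same length there. Levels are given as mean ± SD over the libraries. Differences between libraries were tested with an exact conditional binomial test on expected counts rounded to whole numbers and totals scaled by TMM factors of 0.960 in replicate 1 and 1.04 in replicate 2 (edgeR 4.0.16, R 4.3.3), on genes reaching 10 counts in either library. The test was checked on simulated counts. Intervals of shares are exact 95% Clopper-Pearson intervals, and a count of 0 was taken to allow up to 3 counts; as the reads carry no molecular identifiers, both reflect counting error alone. Python 3.11.15 ran the rest, with SciPy 1.17.1, NumPy 2.4.6, pandas 2.3.3 and matplotlib 3.10.9 for figures.

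The 10 genes and the lists (other ETS family genes, partners and regulators, PU.1, megakaryocyte, endothelial and GABP targets, B cell and erythroid markers) were chosen with earlier results of these data known. All 10 were named, any list gene could be named, and transcripts were named if leading, if at 10% or more of the TPM in both libraries, or if of Spi1; others named were chosen after their values were seen. The alternatives tried were other scaling, count minimums, detection limits, posterior mean values and leaving out each library.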

Additional observations from a re-analysis of the deposited data

How the results depend on the processing

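No paired analysis was possible because there was a single group. The count of ETS genes called different stayed at 0 under both other scalings, both other count minimums and posterior mean counts, and came to 6 with no fold requirement. The count over all genes, 654, came to 422 with a minimum of 50 counts (fewer genes were tested) and to 7495 with no fold requirement. The 8 detected ETS genes came to 5 at a threshold of 5 TPM. The share of ETS family TPM held by Spi1, 21.1%, came to 37.3% over the 10 members only and to 33.4% on coding transcripts, an alternative added after the data were seen; without either replicate it ran from 20.8% to 21.3%. The log2 ratio of Spi1 to Gata1 ran from 1.47 to 1.58 without either replicate. The log2 ratio of replicate 2 to replicate 1 changed sign for Spi1 (0.033 with total counts, 0.067 by TPM), Gabpa (0.021 and 0.14) and Etv6 (-0.30 by TPM). The median of all genes lay at 0.13 with total counts and 0.15 by TPM. Spi1 and Gabpa moved the same way as that median, and Etv6 by TPM moved the other way. The effective length of Etv6, by which TPM is scaled, was 820 bases in replicate 1 and 1283 in replicate 2. The cause of these sign changes was not tested. Members with a leading transcript at 50% or more, 8 with Spib on 1 count, came to 7 by share of counts, without Ets2, and to 9 in each library alone, with Etv6. In all, 28 of 34 alternatives for the main values and 62 of 72 for single genes were labelled unchanged. That meant within a set fold for counts of genes, and within the SD for levels, shares and ratios within a library. For the library difference of a gene it meant the same sign, and the same call where the test was rerun. With 2 libraries, leaving either out moves a mean by no more than its SD, so those alternatives for levels, shares and ratios were unchanged by construction. With 2 libraries the SD has a single degree of freedom, and Erg, at 207 counts or fewer, had the fewest counts of the 8 detected ETS genes among the 10.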
